A study of Mus musculus with 10 samples.

Results

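Red cell transcripts were followed across 10 cochlear RNA libraries as a possible measure of their blood content. Globin RNA varied 4.09-fold among control libraries alone and 2.83-fold among those labelled cKO. None of the 7 listed genes tested differed between the groups at an edgeR adjusted p under 0.05, where 0.619% of all 17937 tested genes did. The list named 9 erythroid genes. It held the adult alpha globins Hba-a1 and Hba-a2, the adult beta globins Hbb-bs and Hbb-bt, the haem enzyme gene Alas2, the membrane genes Slc4a1 and Epb42, the globin chaperone gene Ahsp, and the transcription factor gene Klf1. By symbol, 8 of the 9 matched a gene ID among the 54532 genes of the count table, and Ahsp was not analysed here. The filter on low counts left 7 of the 8 among 17937 tested genes. Epb42 did not pass it and is given as values only.

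The libraries came from the soft cochlear tissue of female mice on postnatal day 1. The bony capsule had been removed, and each library held the tissue of both cochleae of 1 animal. The control group had 5 libraries of genotype Esrrgfl/fl, in which loxP sites flank both copies of Esrrg, and the other 5 were of genotype Esrrgfl/fl;Sox10-Cre (cKO), in which Sox10 sequence drives the Cre recombinase on the same floxed background. Sox10 is used by the otic epithelium, glia and melanocytes and is no gene of red cells. No control carried Cre without the floxed gene. Esrrg, a nuclear receptor gene and the target of the deletion, had more counts over the whole gene under the cKO label. Controls 1 to 5 held 2404, 1725, 2099, 2336 and 2414 counts, and the cKO libraries 3632, 3359, 3146, 2768 and 3477 counts. The groups did not overlap, and the log2 fold change came to 0.62 (SE 0.117, edgeR adjusted p 0.0259). When single libraries were dropped, 7 of 10 fits gave an adjusted p of 0.05 or more, at most 0.0992 without cKO 2. Counts over a whole gene do not show its floxed part separately, so they neither bear out nor refute the label. The second group is therefore called the libraries labelled cKO, and each direction below depends on that label.

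Library totals lay between 33487089 and 41779836 counts. On the first principal component of the 500 most variable genes, which held 25.6% of their variance, control 2 stood apart at -29.0 and cKO 5 at 17.9, and the other 8 libraries lay between -4.11 and 5.70. Values without each library are given where they change a result. The labelled tissue was checked against 12 genes of the cochlear epithelium, such as Oc90, Tecta and Epyc. All 12 were tested, 0 were called (1 at an unadjusted p under 0.05), and their summed level was 4226 to 4938 CPM in controls against 4653 to 4977 CPM under the cKO label. CPM are counts scaled to a library total of 1000000 after TMM normalisation. Values of a bulk library do not separate fewer red cells from less RNA per red cell.

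Haemoglobin is a tetramer of alpha and beta chains with 1 haem group per chain, and it fills the circulating red cell. A young red cell, the reticulocyte, has lost its nucleus but still holds globin RNA, while its precursors in liver, spleen and marrow carry nuclei and the factors that switch the globin genes on. Alas2 starts haem synthesis in these cells, Slc4a1 (band 3) exchanges anions across the red cell membrane, and Epb42 (protein 4.2) ties band 3 to the membrane skeleton. Klf1 is a zinc finger factor that binds CACCC sequences in globin promoters, and GATA1 is the factor that binds GATA sequences there.

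The promoters of the members show what they share in sequence and where the paired globin genes can be told apart. RefSeq windows of GRCm38.p6, from 250 bases before to 50 bases after the start of a gene, were matched for 7 members. The windows below are given 5′ to 3′ on the strand of the gene, at chr11:32283422-32283721 (plus strand), chr7:103827879-103828178 (minus), chr7:103813874-103814173 (minus), chrX:150547167-150547466 (plus) and chr8:84901732-84902031 (plus). Capitals mark AGATAA or TGATAA (the GATA motif) and CACCC (the motif of Klf1), on either strand.
Hba-a1: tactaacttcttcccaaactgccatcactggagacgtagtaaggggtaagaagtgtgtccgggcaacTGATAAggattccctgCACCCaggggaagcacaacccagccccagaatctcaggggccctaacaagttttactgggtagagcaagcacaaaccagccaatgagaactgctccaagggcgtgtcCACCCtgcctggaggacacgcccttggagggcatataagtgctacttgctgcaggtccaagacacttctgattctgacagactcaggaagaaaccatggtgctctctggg
Hbb-bs: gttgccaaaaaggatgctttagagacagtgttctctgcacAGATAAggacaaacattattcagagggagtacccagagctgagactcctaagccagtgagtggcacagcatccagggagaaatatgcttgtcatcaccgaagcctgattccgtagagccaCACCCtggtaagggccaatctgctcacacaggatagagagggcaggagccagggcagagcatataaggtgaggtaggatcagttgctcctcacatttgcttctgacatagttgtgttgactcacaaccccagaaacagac
Hbb-bt: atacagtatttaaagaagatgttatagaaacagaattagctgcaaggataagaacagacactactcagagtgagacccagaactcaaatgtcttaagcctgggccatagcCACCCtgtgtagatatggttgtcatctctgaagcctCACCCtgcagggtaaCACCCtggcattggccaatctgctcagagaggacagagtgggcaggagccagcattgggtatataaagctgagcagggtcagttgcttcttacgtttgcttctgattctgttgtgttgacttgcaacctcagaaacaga
Alas2: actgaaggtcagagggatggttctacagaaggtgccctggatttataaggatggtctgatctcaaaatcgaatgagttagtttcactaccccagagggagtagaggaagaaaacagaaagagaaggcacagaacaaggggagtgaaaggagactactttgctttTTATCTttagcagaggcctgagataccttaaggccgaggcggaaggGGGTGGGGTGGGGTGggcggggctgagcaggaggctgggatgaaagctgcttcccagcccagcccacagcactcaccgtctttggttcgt
Klf1: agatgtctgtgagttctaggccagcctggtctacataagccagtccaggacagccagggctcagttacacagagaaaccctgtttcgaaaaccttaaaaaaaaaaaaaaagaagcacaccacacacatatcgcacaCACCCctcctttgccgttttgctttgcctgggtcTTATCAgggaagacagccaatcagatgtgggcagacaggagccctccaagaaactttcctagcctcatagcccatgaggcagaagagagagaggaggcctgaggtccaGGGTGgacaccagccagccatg
The GATA motif was found in 6 of 7 member windows and in 18.6% of 32851 windows of all genes. The CACCC motif was found in 6 of 7 and in 57.5%. CCAAT, searched in the same way on both strands, was found in 5 of 7 and in 37.4%. CACCC and CCAAT can overlap in their letters, but in these windows no match of one motif overlapped a match of another. Hbb-bs has CACCC 90 bases and CCAAT 76 bases before its start, and Hbb-bt has them at 89 and 75 bases. Starts here are those of the RefSeq windows. The GENCODE gene positions given below begin farther upstream, so both Hbb-bs matches lie inside its GENCODE span. Alas2 carries 3 adjacent CACCC matches on the opposite strand, at 40, 35 and 30 bases. Klf1 has a GATA motif at 80 bases, also on the opposite strand. Such a match is a description of letters and not of binding.

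The window of Hba-a2 is not shown because 297 of its 297 aligned bases were identical to Hba-a1 when shifted by 3 bases, while the windows of Hbb-bs and Hbb-bt were identical at 56.2% of 299 bases. The coding sequences of each pair (GENCODE M21) differ at 1 base, C381T between Hba-a1 and Hba-a2 and C417T between Hbb-bs and Hbb-bt, counted from 1 at the first base of the start codon with the first-named gene's base first. The 41 bases around each, with the difference in capitals, show how little separates the copies.
Hba-a1: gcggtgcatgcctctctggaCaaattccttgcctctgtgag
Hba-a2: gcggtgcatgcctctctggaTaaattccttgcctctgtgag
Hbb-bs: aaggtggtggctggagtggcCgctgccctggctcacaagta
Hbb-bt: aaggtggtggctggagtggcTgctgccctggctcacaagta
Of all stretches of 150 bases (the read length) in the transcript of Hba-a1, 48.4% also occur in that of Hba-a2, and 65.7% of those of Hba-a2 occur in Hba-a1. For Hbb-bs and Hbb-bt the shares were 58.7% and 50.7%. How the authors' counting treated reads that match both copies is not given in the sources used here, so values of a single globin gene are uncertain and the sum over the 4 is the firmer value.

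The 4 adult globin genes together took a small and very uneven share of each library. The share was 0.113% of counts in control 1, 0.283% in control 2, 0.0693% in control 3, 0.0767% in control 4 and 0.222% in control 5. In the libraries labelled cKO 1 to 5 it was 0.0837%, 0.122%, 0.0666%, 0.0431% and 0.107%. Controls 2 and 5 were above every other library, cKO 4 was the lowest, and the other 7 libraries of both groups lay among each other between 0.0666% and 0.122%. The mean was 0.153% ± 0.0950 in controls against 0.0845% ± 0.0314 under the cKO label (SD over 5 libraries each), so the control mean was 1.81 times the other. Within the controls alone, the highest library was 4.09 times the lowest, and within the libraries labelled cKO 2.83 times. The 95% Wilson intervals, which cover counting error only, were narrow: 0.282% to 0.285% in control 2 and 0.0425% to 0.0438% in cKO 4.

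**Figure D1:**
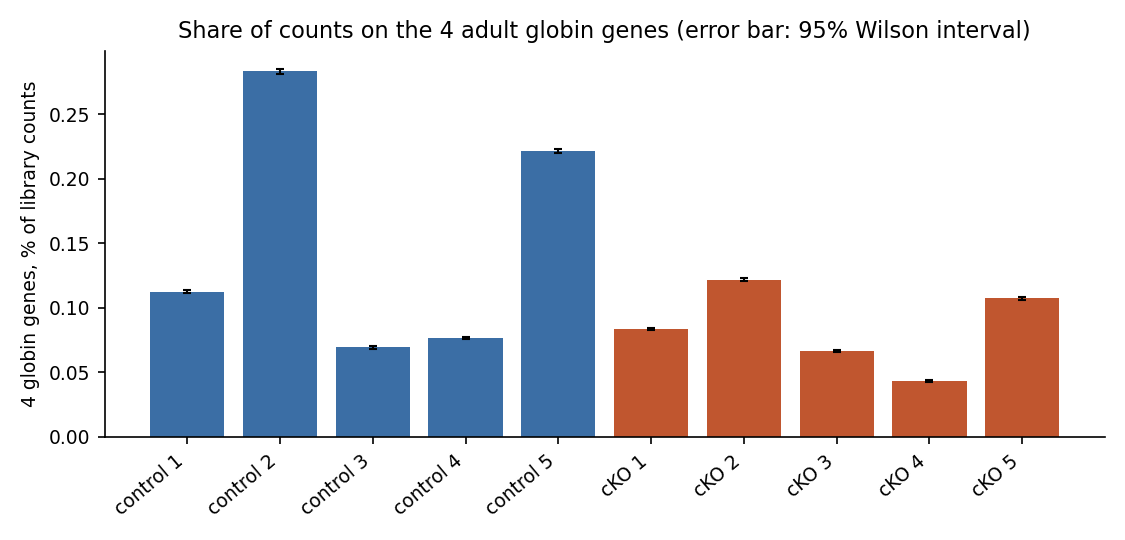
Share of library counts on Hba-a1, Hba-a2, Hbb-bs and Hbb-bt (y axis, percent) in each of the 10 libraries (x axis; blue control, orange cKO label; error bars are 95% Wilson intervals). Controls 2 and 5, at 0.283% and 0.222%, stand above the rest, and the other 3 controls lie in the range of the libraries labelled cKO.

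Summed over all 8 genes analysed, the level was 1566 ± 988 CPM in controls against 882 ± 338 CPM under the cKO label (SD over 5 libraries each). The highest control was 4.15 times the lowest, or 3.10 times without control 2. The highest library labelled cKO was 2.91 times the lowest, or 1.90 times without cKO 4. The ratio between the group means, 1.77, was below all 4 of these values.

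Hbb-bs (ENSMUSG00000052305; GRCm38 chromosome 7, 103826534 to 103828096, minus strand), a beta globin gene, was the most abundant member. Controls 1 to 5 had 602, 1700.3, 405, 431 and 1207 CPM, and libraries cKO 1 to 5 had 468, 714, 384, 259 and 598 CPM. Controls 2 and 5 exceeded all libraries labelled cKO, cKO 3 and cKO 4 lay below all controls, and 6 libraries lay in the range common to both groups. Between the groups, the log2 fold change was -0.84 (SE 0.432, 95% interval -1.80 to 0.12, edgeR adjusted p 0.579), and without control 2 it was -0.46.

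Hba-a1 (ENSMUSG00000069919; chromosome 11, 32283511 to 32284465, plus strand), an alpha globin gene, gave nearly the same picture. Its level was 336, 874, 215, 242 and 727 CPM in controls 1 to 5 and 276, 374, 205, 135 and 347 CPM in cKO 1 to 5. It also had a log2 fold change of -0.84 (SE 0.440, interval -1.82 to 0.14, edgeR adjusted p 0.590), which became -0.52 without control 2. Again 6 libraries lay in the common range.

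Hbb-bt (ENSMUSG00000073940; chromosome 7, 103812524 to 103813996, minus strand), the other adult beta globin gene, had 130, 251, 53.7, 70.4 and 158 CPM in controls 1 to 5 and 69.4, 137, 61.3, 26.2 and 98.7 CPM in cKO 1 to 5. Here 7 libraries lay in the common range, and only cKO 4 was below all controls. Its log2 fold change of -0.76 (SE 0.511, interval -1.91 to 0.40, edgeR adjusted p 0.657) became -0.40 without control 2.

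Hba-a2 (ENSMUSG00000069917; chromosome 11, 32296489 to 32297298, plus strand), the second alpha globin gene, had 28.8, 88.5, 19.9, 24.5 and 68.7 CPM in controls 1 to 5 and 26.8, 29.5, 12.1, 12.2 and 23.8 CPM in cKO 1 to 5. Its log2 fold change, -1.14 (SE 0.464, interval -2.18 to -0.11), had the one interval of the 7 that leaves out 0, and its edgeR adjusted p was 0.477. This rests in part on single libraries: the log2 fold change was -0.78 (SE 0.463) without control 2 and -0.95 (SE 0.471) without control 5. It was farthest from 0, at -1.33, without control 3. The groups overlapped here too, with 6 libraries in the common range.

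Alas2 (ENSMUSG00000025270; chromosome X, 150547375 to 150570638, plus strand), the erythroid form of the first haem enzyme, had 34.7, 50.6, 19.6, 18.7 and 50.4 CPM in controls 1 to 5 and 27.6, 38.9, 17.3, 10.9 and 40.4 CPM in cKO 1 to 5. Controls 3 and 4 were close to cKO 3, and the log2 fold change was -0.37 (SE 0.399, interval -1.25 to 0.51, edgeR adjusted p 0.786). With 1 library dropped it was nearer 0 without control 2 (-0.21), control 5 (-0.20), cKO 3 (-0.24) or cKO 4 (-0.17), and farther from 0 without cKO 5 (-0.56). Exons of Alas2 overlap those of Apex2 and Mir3620 on the other strand, and the use of strand in counting is not given in the sources used here.

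Slc4a1 (ENSMUSG00000006574; chromosome 11, 102348824 to 102366203, minus strand), the gene of band 3, was low, with 19 to 148 counts per library. It had 2.94, 2.22, 1.28, 1.30 and 3.79 CPM in controls 1 to 5 and 2.01, 1.46, 1.47, 0.485 and 2.84 CPM in cKO 1 to 5. Its highest library was control 5 and its lowest cKO 4. Between the groups it had a log2 fold change of -0.49 (SE 0.394, interval -1.33 to 0.36, edgeR adjusted p 0.704). It was -0.24 without control 5, -0.25 without cKO 4 and -0.78 without cKO 5.

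Epb42 (ENSMUSG00000023216; chromosome 2, 121017891 to 121037072, minus strand), the gene of protein 4.2, had 6, 17, 7, 4 and 4 counts in controls 1 to 5 and 5, 11, 5, 4 and 10 counts in cKO 1 to 5. These counts are too few to rank most libraries: the counting error alone amounts to 36.3% of the mean in controls and 37.8% in the libraries labelled cKO.

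Klf1 (ENSMUSG00000054191; chromosome 8, 84901928 to 84905291, plus strand), the erythroid transcription factor gene, differed from the globin genes in its pattern. It had 2.12, 1.86, 1.65, 1.77 and 1.30 CPM in controls 1 to 5 and 1.59, 1.37, 1.79, 1.89 and 2.40 CPM in cKO 1 to 5, from 48 to 91 counts per library. Control 5, second highest for all 4 globin genes, was the lowest for Klf1, and cKO 4, the lowest in globin share, was the third highest. With a log2 fold change of 0.06 (SE 0.198, interval -0.37 to 0.48, edgeR adjusted p 0.943), Klf1 changed sign when control 5 or cKO 5 was left out.

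**Figure D2:**
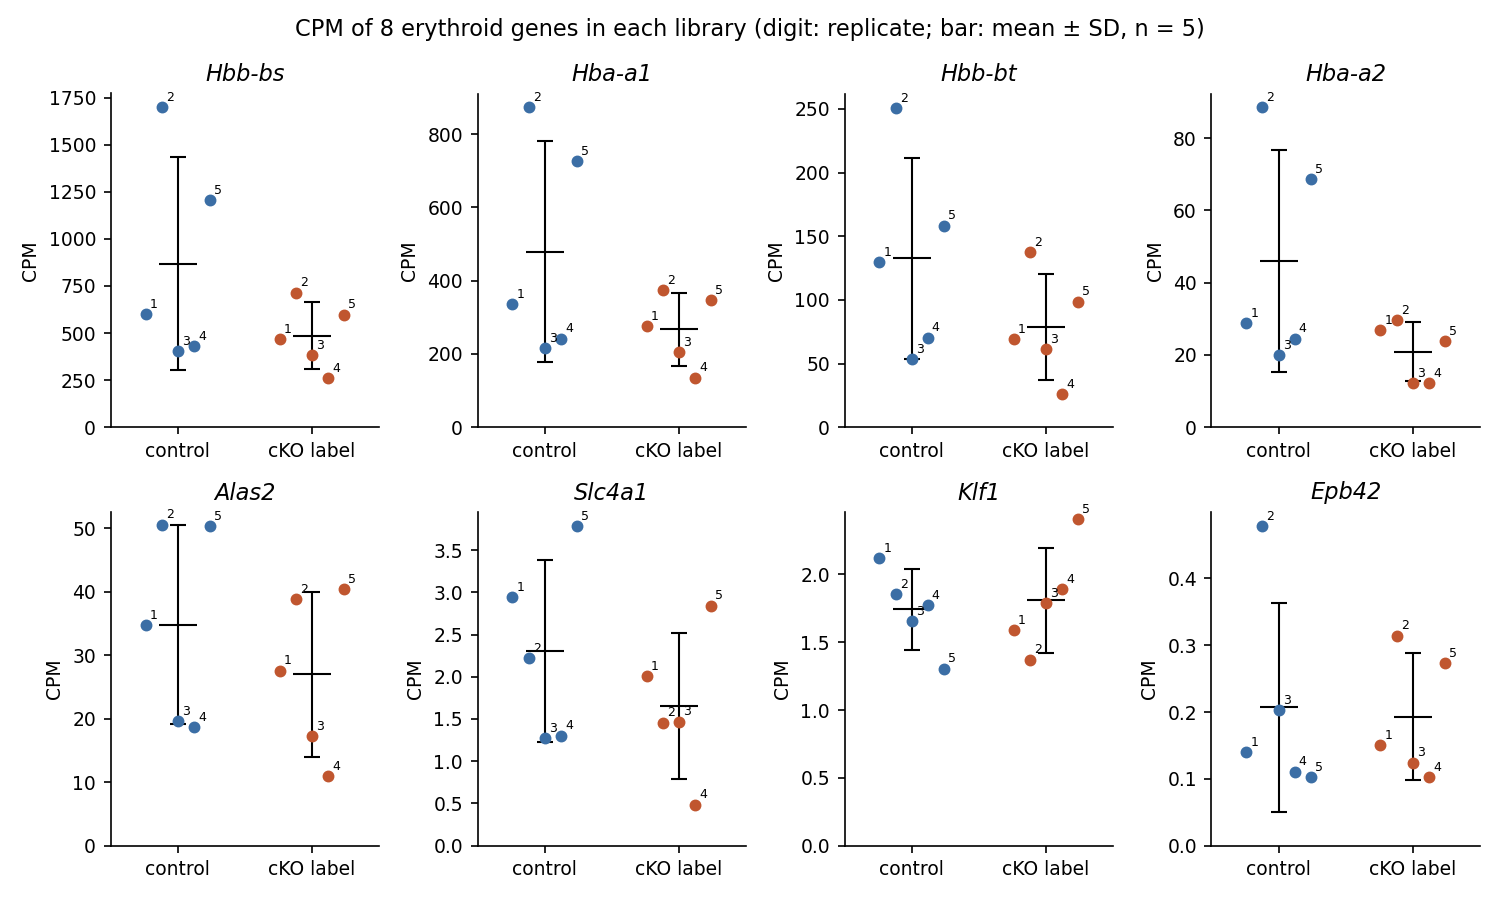
CPM (y axis, linear from 0) of the 8 erythroid genes in each library, by group (x axis; the digit is the replicate number; bars are mean ± SD, n = 5). For the 4 globin genes and Alas2, controls 2 and 5 lie at the top and controls 3 and 4 among the libraries labelled cKO; Klf1 spans only 1.30 to 2.40 CPM.

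Of the 7 members tested, 0 were called at an edgeR adjusted p under 0.05, against 0.619% of all 17937 tested genes (0.546% lower and 0.0725% higher under the cKO label), and DESeq2 and limma-voom also called 0. At an unadjusted p under 0.05 there was 1 (Hba-a2), where 9.65% of all tested genes passed. The CPM ranges of the groups overlapped for all 8 genes analysed; over all tested genes, 2.84% showed no overlap. The log2 fold change was negative for 6 of 7 and positive for Klf1, beside 51.7% negative over all tested genes. The median was -0.76, beside -0.0072 over all tested genes, and moved between -0.46 (without control 2) and -0.99 (without cKO 2) with 1 library left out. The intervals reached down to -2.18 (Hba-a2), so the test does not show that the groups are alike.

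The spread within groups was wide for 6 of the 7 genes tested. The within-group SD of log2 CPM, pooled over the groups, was 0.77 for Hbb-bs, 0.78 for Hba-a1, 0.90 for Hbb-bt, 0.81 for Hba-a2, 0.76 for Alas2 and 0.80 for Slc4a1. The median over all tested genes was 0.21, and these 6 genes lay at percentiles 97.2 (Alas2) to 98.7 (Hbb-bt). The difference between the group means of log2 CPM was 0.527 (Alas2) to 1.22 (Hba-a2) times this SD. The genotype label took 7.98% (Alas2) to 31.8% (Hba-a2) of the variance of log2 CPM across the 10 libraries. The rest lay among libraries of one group, but not without order. In both groups the globin share fell from replicate 2 to 5 to 1, and replicates 3 and 4 were lowest. With replicate number as an added term in the fit, the SE of Hbb-bs was 0.151 in place of 0.432. Sample titles do not say whether the numbers mark pairs. For Klf1 the SD was 0.27, at percentile 64.5, and the label took 0.881% of the variance.

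**Figure D3:**
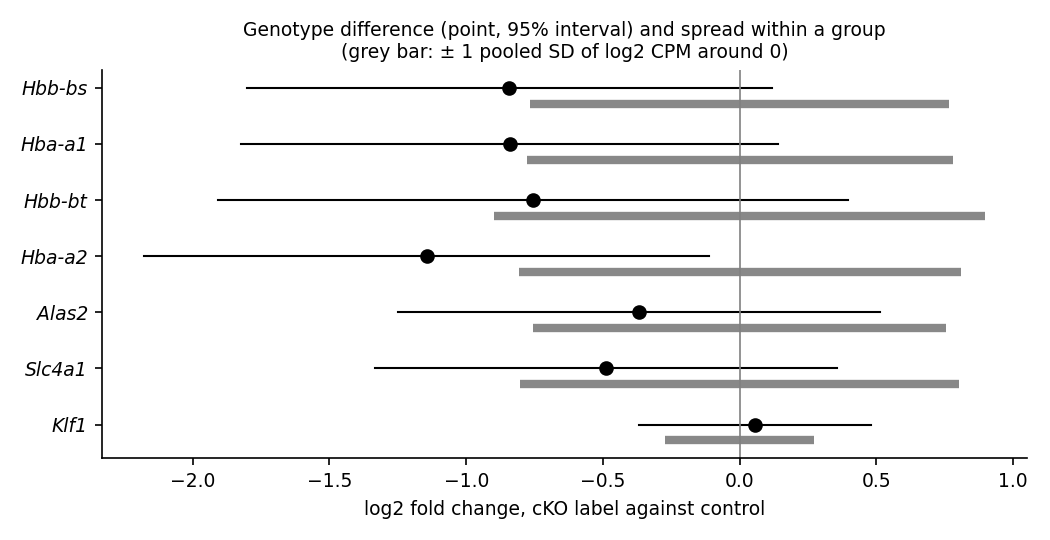
Log2 fold change of the libraries labelled cKO against controls (x axis; point with 95% interval) for the 7 tested erythroid genes (y axis), with a grey bar of ± 1 pooled within-group SD of log2 CPM drawn around 0. The points of 5 genes lie between -0.37 and -0.84, that of Hba-a2 at -1.14 and that of Klf1 at 0.06, and the interval of Hba-a2 alone leaves out 0.

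Counting error was a small part of this spread for the globin genes. The coefficient of variation of Hbb-bs was 65.2% in controls and 36.7% in the libraries labelled cKO, where counting alone gives 0.554% and 0.753%. For Alas2 it was 45.0% and 48.1%, with 2.75% and 3.20% from counting. For Klf1 the observed 17.2% and 21.4% stood beside 12.3% and 12.2% from counting. Counting error was thus a larger part of its spread than for the globin genes, but the spread exceeded it in both groups.

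The globin genes and Alas2 moved together from library to library, and Slc4a1 passed with Alas2 but with no globin gene by rank. Epb42, at its low counts, had r = 0.528 and rho = 0.552 with Hba-a1 (adjusted permutation p 0.171 and 0.172). Control 2 had the highest CPM for 6 of the 8 genes and cKO 4 the lowest for 6. Controls 2 and 5 were the highest pair for all 4 globin genes and Alas2. Among the 15 pairs of the 4 globin genes, Alas2 and Slc4a1, Pearson's r of log2 CPM over the 10 libraries lay between 0.668 (Hba-a2 with Slc4a1) and 0.995 (Hba-a1 with Hbb-bs), and Spearman's rho between 0.588 and 0.988. With permutation p-values adjusted over all 28 pairs, 14 of the 15 had a Pearson p under 0.05 and 11 a Spearman p under 0.05. The 4 pairs that missed by rank were Slc4a1 with each globin gene, with adjusted permutation p of 0.0523 (Hbb-bs and Hbb-bt), 0.0536 (Hba-a1) and 0.140 (Hba-a2). The Pearson value that missed, 0.0714, was also a permutation p of Hba-a2 with Slc4a1. Without the 2 libraries farthest from the median of the first gene, r lay between 0.667 and 0.991. For deviations from the group means, r lay between 0.609 and 0.994, so the genes also moved together within genotypes.

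For Hba-a1 with Hbb-bs, an alpha and a beta gene on different chromosomes, r was 0.995 and rho 0.988, with adjusted permutation p-values of 0.00014 and 0.00028 over the 10 libraries. For Alas2 with Slc4a1, r was 0.866 and rho 0.746, with adjusted permutation p-values of 0.00295 and 0.0455. Pairs with Klf1 had r between -0.298 and 0.133 and rho between -0.333 and 0.067, with adjusted permutation p-values of at least 0.541 and 0.463. Without the 2 farthest libraries these r ran from -0.211 to 0.728, the last for Slc4a1 with Klf1.

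**Figure D4:**
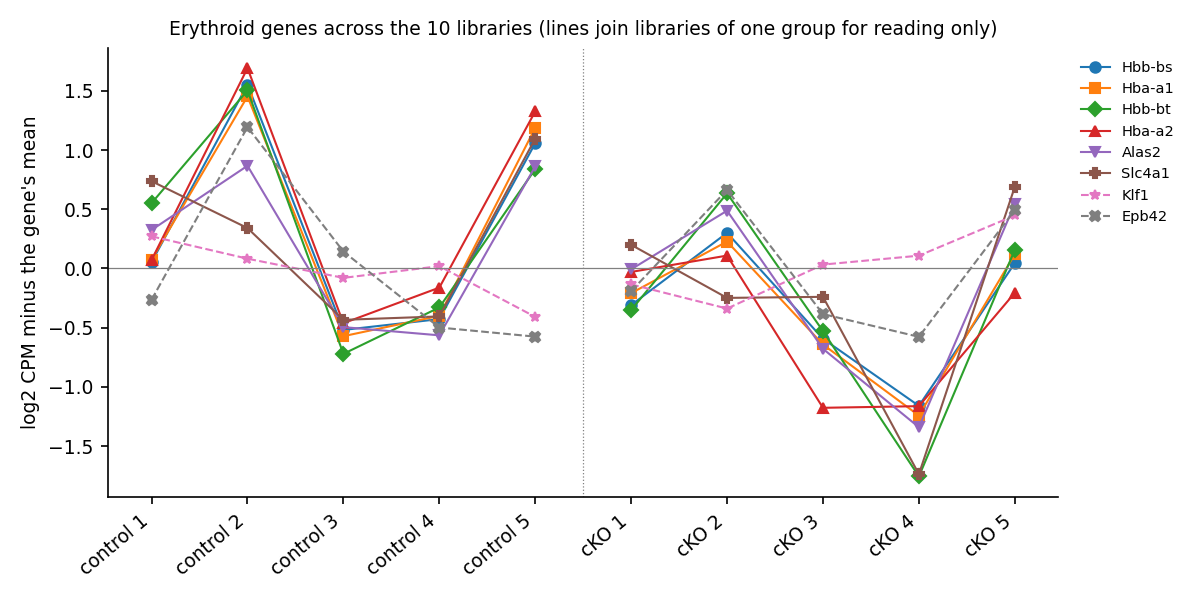
Log2 CPM of each erythroid gene minus its mean over the 10 libraries (y axis) by library (x axis; lines only guide the eye within a group; dashed for Klf1 and Epb42). The 4 globin genes and Alas2 peak in controls 2 and 5 and are low in cKO 4, while Klf1 stays close to 0.

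Per length, the levels were ordered Hbb-bs, Hba-a1, Hbb-bt, Hba-a2, Alas2, Klf1, Slc4a1 and Epb42 by mean FPKM (fragments scaled by gene length in kilobases and by library total) in both groups. Control means were 1118 ± 720 FPKM for Hbb-bs, 583 ± 363 for Hba-a1, 187 ± 109 for Hbb-bt, 68.2 ± 45.0 for Hba-a2 and 14.3 ± 6.36 for Alas2 (SD, n = 5). They were 1.13 ± 0.196 FPKM for Klf1, 0.467 ± 0.218 for Slc4a1 and 0.0377 ± 0.0282 for Epb42. In both groups the FPKM ranges of neighbours in this order overlapped among the 4 globin genes and did not overlap from Hba-a2 downwards.

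Ratios among the globin genes and Alas2 varied less than their levels. The summed FPKM of the alpha genes was 0.473, 0.470, 0.488, 0.506 and 0.556 times that of the beta genes in controls 1 to 5 and 0.538, 0.448, 0.460, 0.492 and 0.504 times in cKO 1 to 5. Over all 10 libraries the highest of these ratios was 1.24 times the lowest, where the summed beta FPKM spanned 6.74 times. Counts of Hba-a2 were 8.56% to 10.1% of those of Hba-a1 in controls and 5.91% to 9.71% in the libraries labelled cKO. Counts of Hbb-bt were 13.1% to 21.6% of those of Hbb-bs in controls and 10.1% to 19.2% in the others. Counts of Alas2 were 2.97% to 5.77% of those of Hbb-bs in controls, lowest in control 2, and 4.20% to 6.76% in the libraries labelled cKO. For Klf1 the ratio to Hbb-bs was not stable: it was 0.108% in control 5 and 0.109% in control 2 but 0.728% in cKO 4.

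Other erythroid genes were read from 5 further lists. Beside the counts for these and later lists, 0.619% of all tested genes were called by edgeR and 9.65% had an unadjusted p under 0.05. Of 7 embryonic and minor globin genes, 0 passed the filter, and their summed level was 0.203 to 0.844 CPM in controls and 0.0766 to 0.629 CPM in the others. Hba-x had 0 to 8 counts per library, Hbb-y 0 to 7, and Hbb-bh2 and Hbb-bh0 had 0 counts in all 10 libraries. A count of 0 in a single library, taken alone, allows up to 3 counts there (counting error only), and 10 libraries together set a tighter bound. The sum of all 7 had r = 0.755 and rho = 0.818 with Hbb-bs over the 10 libraries, with permutation p adjusted over 12 lists of 0.0368 and 0.0337, and r = 0.847 without controls 2 and 5. As no gene of the list passed the filter on low counts, this sum rests on few counts. Of 12 tested genes among 14 erythroid transcription factors and receptors, edgeR called 0, with 0 at an unadjusted p under 0.05. The median log2 fold change was 0.07. Zfpm1 (a GATA cofactor), Ldb1 (a bridging factor) and Gata2, the 3 most abundant, had log2 fold changes of 0.16, 0.09 and 0.16 (edgeR adjusted p at least 0.575). Gata1 itself had 0 to 6 counts per library.

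Among 15 genes of haem synthesis and iron delivery, all tested, 1 was called (Tfrc), 3 had an unadjusted p under 0.05, and 8 were negative. Tfrc, the receptor that brings transferrin iron into cells, had 105, 86.3, 95.1, 89.4 and 98.7 CPM in controls 1 to 5 and 58.9, 47.9, 60.6, 60.8 and 58.7 CPM in cKO 1 to 5. The groups did not overlap, and the log2 fold change of -0.73 (SE 0.0849, edgeR adjusted p 0.000898) remained called whichever library was dropped, with an adjusted p of at most 0.00533. Tfrc did not follow the globin genes within groups: control 2, the highest for Hbb-bs, was the lowest control for Tfrc. The ferritin genes Fth1 and Ftl1, which store iron, had log2 fold changes of -0.39 (edgeR adjusted p 0.355) and -0.000059, and Fech, the last haem enzyme, had 0.09. The summed CPM of the list had r = 0.756 and rho = 0.697 with Hbb-bs, with adjusted permutation p of 0.0331 and 0.0945. Most of that sum came from Fth1 and Ftl1, with means of 519 and 494 CPM over all libraries. Single genes of the list had a median r of 0.359 with the mean log2 CPM of the tested members. The highest r was 0.663 (Fth1), and it was 0.051 without control 2 and cKO 4.

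Of 14 tested genes among 17 of the red cell membrane and skeleton, 1 was called (Ank1) and 2 had an unadjusted p under 0.05, with a median of 0.14. Ank1, an ankyrin that anchors spectrin, had 20.6, 14.9, 24.5, 23.3 and 26.1 CPM in controls 1 to 5 and 15.2, 10.1, 13.2, 9.55 and 12.1 CPM in cKO 1 to 5. Its log2 fold change was -0.86 (SE 0.161, edgeR adjusted p 0.0248). Dropping single libraries took the adjusted p to 0.05 or more in 7 of 10 fits, at most to 0.0951 (without cKO 2). The groups overlapped, since control 2 was below cKO 1, and exons of Ank1 overlap those of Gm15816. Ankyrin 1 is also made in neurons. Epb41, Aqp1 and Slc2a1, the 3 most abundant of the list, had log2 fold changes of 0.23, 0.05 and 0.25 (edgeR adjusted p at least 0.504).

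Of 16 tested genes among 19 red cell enzymes and late erythroid genes, 0 were called by edgeR and 2 had an unadjusted p under 0.05, with a median of -0.07. Prdx2 (a peroxiredoxin), Bnip3l (a factor of mitochondrial removal) and Cat (catalase), the 3 most abundant, had log2 fold changes of -0.21, 0.11 and 0.20 (edgeR adjusted p at least 0.408). Many cell types use these 3 genes. The summed CPM of the membrane, enzyme and transcription factor lists had r of -0.656, 0.672 and -0.409 and rho of -0.503, 0.527 and -0.333 with Hbb-bs, with adjusted permutation p of at least 0.0835. For the membrane list r was 0.177 without controls 2 and 5.

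Of these lists, 1 gene that moved with the members is given here, chosen after its values were seen. Isg20, an exonuclease gene that interferon also induces, had 1.96, 2.33, 1.25, 0.887 and 2.40 CPM in controls 1 to 5 and 1.41, 1.92, 1.24, 0.715 and 2.00 CPM in cKO 1 to 5. Its lowest libraries, cKO 4 and control 4, were also low for Hbb-bs, and the groups overlapped. It was not called, with a log2 fold change of -0.29 (SE 0.314, edgeR adjusted p 0.787).

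Other blood cells were read from marker lists, and each list's summed CPM was set against Hbb-bs over the 10 libraries. Platelet and megakaryocyte markers, of which 4 of 12 were tested and 0 called (1 at an unadjusted p under 0.05), summed to 49.8 to 68.0 CPM in controls against 43.7 to 60.6 CPM under the cKO label. This sum had r = 0.931 and rho = 0.867 with Hbb-bs, with permutation p adjusted over 12 lists of 0.00084 and 0.0246. It had r = 0.887 without controls 2 and 5 and r = 0.914 for deviations from the group means. Pf4, a platelet chemokine, was highest in control 2 at 36.4 CPM and lay between 18.9 and 28.9 CPM in the other libraries. Itga2b and Itgb3, which form the platelet fibrinogen receptor, had log2 fold changes of 0.03 and -0.38 (edgeR adjusted p 0.966 and 0.244). None of the 12 genes was at 0 in every library, but those that did not pass the filter were low. Gp1bb had 0 to 1 counts per library, Gp6 0 to 4, Gp9 2 to 16 and Ppbp 1 to 39. Most of the sum came from Pf4 and Itgb3, with means of 24.5 and 20.7 CPM over the 10 libraries, so it rests on few genes of the list.

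Neutrophil markers, with 9 of 14 tested and 0 called (0 at an unadjusted p under 0.05), summed to 9.15 to 17.8 CPM in controls against 7.71 to 16.3 CPM under the cKO label. Their sum had r = 0.777 and rho = 0.733 with Hbb-bs, with adjusted permutation p of 0.0331 and 0.0827, and r = 0.596 without controls 2 and 5. S100a9, which codes for a calcium-binding protein abundant in neutrophils, had 1.77 to 3.80 CPM in controls and 1.28 to 3.42 CPM in the others. S100a8 and Prtn3 had log2 fold changes of -0.27 and 0.10 (edgeR adjusted p at least 0.783). Exons of Prtn3 overlap those of Plppr3. Platelets and neutrophils circulate with red cells, and the part of other cells in the members' levels was not tested.

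The sums of the remaining lists passed no test against Hbb-bs. For lymphocytes (5 of 12 tested), r was 0.184, for macrophages and monocytes (13 of 14 tested) -0.0411, and for endothelium (12 of 12 tested) -0.0319, with rho of 0.273, 0.0909 and -0.188 and adjusted permutation p of at least 0.596. The sums were 3.91 to 8.77, 463.6 to 562.1 and 604 to 748 CPM in controls, and 4.92 to 7.95, 531 to 647 and 681 to 740 CPM in the others. For the 12 cochlear genes r was -0.599 and rho -0.406 (adjusted permutation p 0.117 and 0.422), and r was 0.116 without controls 2 and 5. The lymphocyte, macrophage and endothelium lists had 0 edgeR calls, and at an unadjusted p under 0.05 they had 0, 3 and 1 genes. Cd79a, Cd79b and Cd2 of lymphocytes had 22 to 93 counts per library and an edgeR adjusted p of at least 0.807. Csf1r, Mrc1 and Vcam1 of macrophages had log2 fold changes of 0.31, 0.28 and 0.33 (edgeR adjusted p 0.207, 0.213 and 0.390). Cdh5, Kdr and Emcn of the vessel wall had 0.21, -0.02 and -0.13 (edgeR adjusted p at least 0.517).

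**Figure D5:**
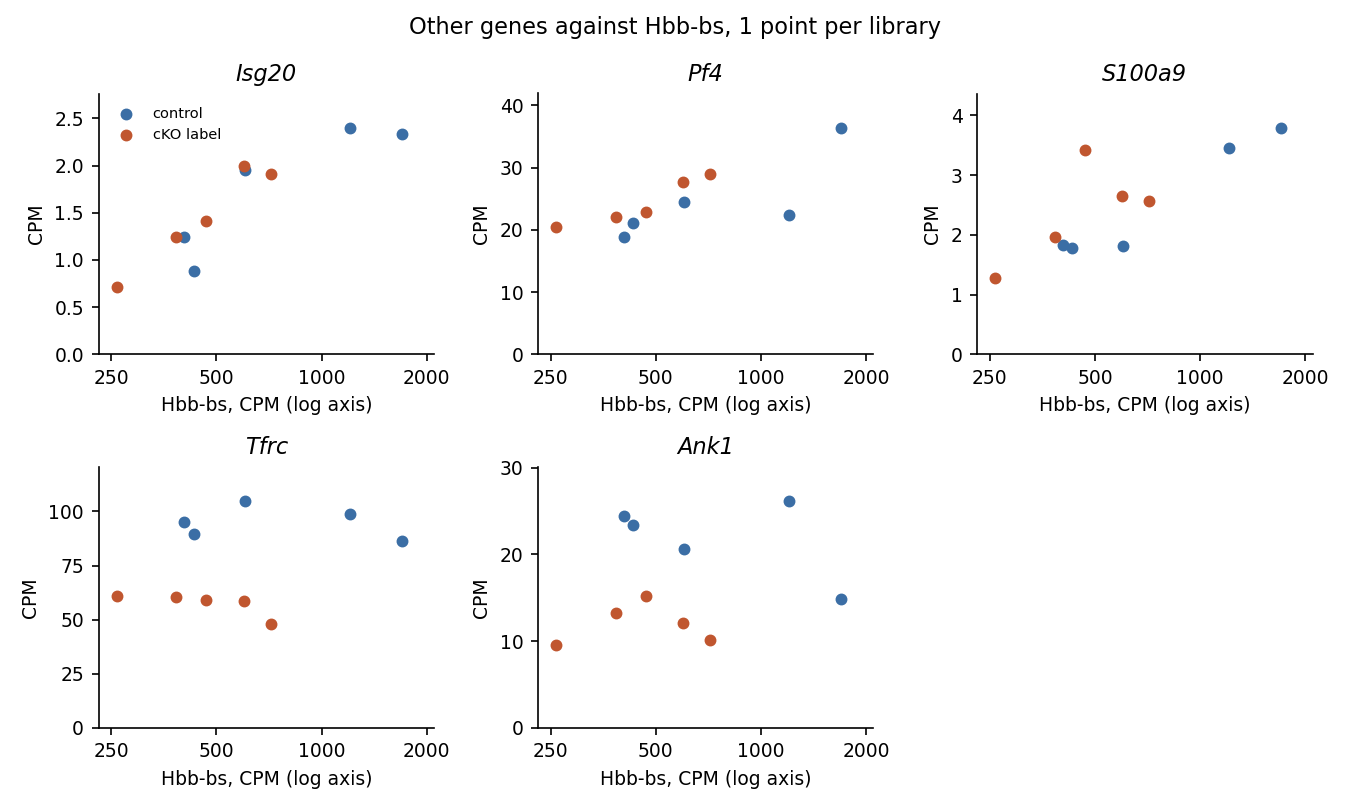
CPM of 5 genes (y axes, linear from 0) against CPM of Hbb-bs (x axis, log scale), 1 point per library, blue control and orange cKO label. Isg20, Pf4 and S100a9 tend to be lower where Hbb-bs is low, while Tfrc separates the groups (86.3 to 105 against 47.9 to 60.8 CPM) and Ank1 nearly so. Isg20, Pf4 and S100a9 do not stand for their lists. Each had the highest r of its list with the mean log2 CPM of the tested members, at 0.926, 0.721 and 0.826. The lowest r of these lists were -0.477 (late erythroid), 0.450 (platelet) and 0.175 (neutrophil). In Hbb-bs itself 6 libraries lie in the range common to both groups.

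Cartilage and bone markers also differed widely between libraries of one group. Col10a1, a collagen of cartilage that is about to mineralise, whose exons overlap those of Nt5dc1, had 113, 358, 604, 5.60 and 1405 CPM in controls 1 to 5 and 22.5, 58.6, 125, 85.0 and 5.68 CPM in cKO 1 to 5. Its highest library, control 5, was also high for globin, but control 3, the second highest, was low for globin. The edgeR adjusted p of Col10a1 was 0.493. The list had 11 of 12 genes tested, 3 at an unadjusted p under 0.05 and 1 called, Spp1 (osteopontin), with 253 to 408 CPM in controls against 89.6 to 153 CPM under the cKO label. It had a log2 fold change of -1.28 (SE 0.158, edgeR adjusted p 0.00108), and its exons overlap those of Gm42793. Col2a1 and Col9a1, the most abundant cartilage collagens, had log2 fold changes of 0.12 and -0.01 (edgeR adjusted p at least 0.716). The sum of the list, 12150 to 14900 CPM in controls and 12290 to 15170 CPM in the others, had r = -0.118 and rho = -0.0303 with Hbb-bs, with adjusted permutation p of 0.904 and 0.946. The part of cartilage or bone in the libraries' globin levels was not tested.

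The genes outside all lists whose log2 CPM was most like the mean of the 7 tested members over the 10 libraries, among 15260 genes with at least 1 CPM, were 1600020E01Rik, Coq10a, 1110032A03Rik, Tmem199, Zfp653, Fastk, Smim13 and Samd14. As a measure of likeness, r ran from 0.940 for 1600020E01Rik to 0.888 for Samd14, and from 0.754 to 0.911 without control 2 and cKO 4. The 8 genes were picked for their high r among 15260 genes over 10 libraries, and how many such r arise by chance was not tested. Their levels moved little: Samd14 ranged from 111 to 147 CPM and Coq10a from 14.0 to 18.5 CPM, with log2 fold changes between -0.18 and -0.04 for the 8 genes. Exons of 5 of these genes (1600020E01Rik, 1110032A03Rik, Zfp653, Fastk and Smim13) overlap those of another gene. Of the 50 genes most like that mean, 6 were members. The mean was made from the 7 tested members, so their high place follows in part from how it was made.

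Finally, the level of the members was carried into the test of all genes. Outside the members, 111 genes were called with genotype as the only term. With the libraries' mean centred log2 CPM of the 7 members as an added term, 60 were called (49 lower and 11 higher in the libraries labelled cKO), 58 of them among the 111, and none of the 111 changed sign. That mean was 0.29 in controls and -0.29 in the libraries labelled cKO, with a within-group SD of 0.64. With library totals computed without the members' counts, 110 of the 111 were called. With the member level in the fit, Tfrc had a log2 fold change of -0.76 (SE 0.0951, edgeR adjusted p 0.00256) and Spp1 one of -1.21 (SE 0.183, adjusted p 0.0105), both still called, while Ank1 had -0.90 (SE 0.181, adjusted p 0.0646). Esrrg had 0.65 (SE 0.130, adjusted p 0.0646). How much of the smaller count comes from the members' level and how much from the cost of 1 more term in the fit was not tested.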

How the data were processed

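RNA of the cochlea of 10 animals was measured by poly(A) RNA-seq with paired reads of 150 bp, per the labels' protocols. The authors deposited whole-number counts per Ensembl gene and FPKM values (scaled by gene length and library total). The submitters' processing notes name STAR 2.5, HTSeq 0.61, DESeq2 2 and the build mm10, without roles; the treatment of strand and of reads that match several genes is not given in the sources used here. Sample titles gave the group and replicate number of each library. Positions and symbols are those of GENCODE M21 (GRCm38).

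From the deposited counts, genes were kept by filterByExpr (minimum 10 counts), scaled by TMM and compared with edgeR 4.0.16 (quasi-likelihood F-test, robust, genotype as the only term, Benjamini-Hochberg over all tested genes). The script was tested on simulated data. SE and 95% intervals come from the F statistic. Log2 CPM used a prior count of 2. Correlations used 100000 permutations, two-sided. FPKM served for levels per length. Gene lengths implied by FPKM were close to GENCODE exon lengths (770 against 768 bases for Hbb-bs). Members and lists were chosen with earlier results of these data known. Named genes were the members, called genes and the 3 most abundant tested genes of each list, and the 8 genes most like the members; others are said to be named after their values were seen. Alternatives were other scalings (DESeq2 size factors, upper quartile, totals without the members), other filters, DESeq2 1.42.0, limma 3.58.1 (voom; log2(FPKM + 1) and log2(FPKM + 0.1)), no robust estimation, the replicate block, the members' level as a covariate, and leaving out each library. Some genes of the lists are not reported here.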

Additional observations from a re-analysis of the deposited data

Results flagged for a closer look

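Dixon's test was applied to 17 measures (the CPM of 8 erythroid genes, their sums and the ratios between them) in both groups of 5 libraries, and it singled out 1 of these 34 groups. About 5% of groups, here 1.7, would be singled out by chance. Epb42 was 0.478 CPM in control 2, from 17 counts, while the nearest control had 0.203 CPM and the lowest 0.102 CPM. Controls 2 and 5 were both high for the globin genes and Alas2, so neither stood alone there.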

How the results depend on the processing

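No member was called under any of the 21 alternatives to the edgeR fit, nor in the edgeR fit at an adjusted p under 0.1; over the alternatives the smallest adjusted p of any member was 0.0846, for Hba-a2 with the replicate block. The median log2 fold change of the members stayed negative throughout, from -0.99 to -0.46 with 1 library left out and -0.41 with limma-voom. Klf1 changed sign without control replicate 5 (-0.033) and without cKO replicate 5 (-0.067) and ran up to 0.14 (without control replicate 1); the other 6 members kept their sign. The calls outside the members fell from 111 to 60 with the members' level as a covariate. The ratio of the highest to the lowest library in the members' summed CPM ran from 3.10 to 4.15 in controls and from 1.90 to 2.91 in the libraries labelled cKO with 1 library left out. Same-numbered libraries of the 2 groups had correlations of their deviations between 0.0211 and 0.179, all above 0. Of 5 controls, 3 correlated best with the cKO library of their own number, where 1 of 5 is the share without pairing. Sample titles do not say whether the numbers mark pairs, and these values do not settle it. The main fit did not pair the libraries, and its SE holds only without pairing. With the replicate block, 0 members were called, the members' median was -0.69 and 101 other genes were called, 81 of them among the 111. In the members, Hba-a1, Hba-a2, Hbb-bs and Alas2 were lower under the cKO label in 5 of 5 same-numbered pairs. The block took the SE of Hbb-bs from 0.432 to 0.151 and its edgeR adjusted p from 0.579 to 0.0977, and the adjusted p was 0.112 for Hba-a1 and 0.125 for Alas2. For Esrrg and Ank1, whose alternatives were chosen after seeing the data, the adjusted p under limma on log2(FPKM + 1) was 0.0519 and 0.0685, and for Esrrg it was 0.0562 with the replicate block and 0.0646 with the covariate. Depth limits Epb42, Slc4a1 and Klf1, with 4 to 148 counts per library; it does not limit the globin genes.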
